A study of Mus musculus with 6 samples.

Results

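Tfh214 cells were compared with Tfh21 cells, both sorted populations of mouse T follicular helper (Tfh) cells, by ATAC-seq, an assay in which a transposase cuts open DNA and attaches sequencing adaptors. The comparison used 4 of the 6 libraries of the study, chosen by their labels: WT Tfh21, WT Tfh214, KO Tfh21 and KO Tfh214. WT and KO stand for Stat6 wild-type and Stat6 knockout mice of strain C57BL/6, which were untreated. Cells of 10 mice per genotype went into the sorts and 50000 cells into each library, so each group is 1 pool of mice and 1 library without a replicate. The sources used here give neither the age of the mice, the tissue, the immunization, nor what the numbers in the population names stand for, and they do not describe the Stat6 allele. A difference was therefore read from reads pooled over the genotypes and from whether the WT pair and the KO pair pointed the same way.

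Tfh cells help B cells in germinal centres, under the regulator Bcl6, through cytokines that include IL-21 and IL-4. STAT6 is the transcription factor that IL-4 signalling activates, and with GATA3 it drives the Th2 program, whereas T-bet, encoded by Tbx21, drives the Th1 program and opposes GATA3. Naive and memory T cells that circulate carry the trafficking receptors encoded by Ccr7 and S1pr1 and the survival receptor encoded by Il7r, and activated T cells carry more CD44. Open chromatin marks where regulators can bind and is a different measurement from the RNA level of a gene.

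Depth in peaks was 1122701 and 1271755 reads for Tfh21 and Tfh214 of WT and 1051120 and 798555 for those of KO, so the KO Tfh214 library was the shallowest. Start-site peaks took a smaller share of reads in Tfh214 in both pairs, 31.5% in Tfh21 and 31.0% in Tfh214 of WT and 36.4% and 34.9% of KO, while intergenic peaks took 0.493 percentage points more in WT and 1.18 more in KO. T cell receptor complex genes summed to 1052 and 955 CPM (reads scaled to the total reads in peaks) in WT Tfh21 and Tfh214 and to 1275 and 1207 CPM in KO, and all 12 were measured. Of the B cell markers Ms4a1 and Cd79a had no listed peak, and Cd79b held at most 3 reads in each of the 4 libraries. The summed B cell list stood at 151 and 197 CPM in WT and 144 and 158 CPM in KO. Much of this lay at Pax5, with 76.6 and 101 CPM in WT and 70.4 and 73.9 CPM in KO. Cd8a, Ncr1, Cd68 and Fcgr3 had no listed peak either, and a gene without a listed peak was not measured. In pooled cells, fewer cells with an open site and a less open site in every cell cannot be told apart.

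Ratios are Tfh214 over Tfh21 in CPM, with exact binomial 95% intervals. These reflect counting error alone, and PCR copies among the reads are not accounted for. A peak or gene counted as measured when its higher population held at least 20 reads over both genotypes, and as past the rule when it stood at least 1.5-fold higher, or at least 1.5-fold lower, in each genotype on the log2(CPM + 1) scale, which understates the change of low values.

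The promoters of 4 genes are shown because the results below turn on peaks at or near their starts. They are both listed starts of Il4, the start of Tbx21, and the starts of Rdh12 and Zfp467. Rdh12 and Zfp467 carry the start-site peaks named as higher in Tfh214. Each runs from 250 bases before to 50 bases after the start in RefSeq GRCm38.p6, matched by gene symbol, and capitals mark matches to a motif on either strand.

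Il4 inner start, minus strand, chr11:53617289-53617588: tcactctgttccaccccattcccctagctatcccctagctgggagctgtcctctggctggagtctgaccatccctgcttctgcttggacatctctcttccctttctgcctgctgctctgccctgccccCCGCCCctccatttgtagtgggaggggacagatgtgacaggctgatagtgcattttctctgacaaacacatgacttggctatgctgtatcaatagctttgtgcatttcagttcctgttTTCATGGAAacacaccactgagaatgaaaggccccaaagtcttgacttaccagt

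Il4 outer start, minus strand, chr11:53618616-53618915: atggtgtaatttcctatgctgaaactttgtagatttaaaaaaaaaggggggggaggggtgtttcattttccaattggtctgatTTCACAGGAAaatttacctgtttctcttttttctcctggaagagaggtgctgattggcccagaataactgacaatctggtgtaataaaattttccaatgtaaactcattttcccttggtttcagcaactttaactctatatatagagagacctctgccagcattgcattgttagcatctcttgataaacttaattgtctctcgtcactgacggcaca

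Tbx21, minus strand, chr11:97115282-97115581: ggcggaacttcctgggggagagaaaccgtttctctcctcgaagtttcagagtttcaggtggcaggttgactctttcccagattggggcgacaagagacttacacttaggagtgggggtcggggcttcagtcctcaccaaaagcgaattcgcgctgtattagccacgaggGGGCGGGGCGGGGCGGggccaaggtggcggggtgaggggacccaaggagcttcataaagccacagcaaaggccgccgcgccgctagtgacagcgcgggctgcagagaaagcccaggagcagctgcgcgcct

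Rdh12, plus strand, chr12:79208663-79208962: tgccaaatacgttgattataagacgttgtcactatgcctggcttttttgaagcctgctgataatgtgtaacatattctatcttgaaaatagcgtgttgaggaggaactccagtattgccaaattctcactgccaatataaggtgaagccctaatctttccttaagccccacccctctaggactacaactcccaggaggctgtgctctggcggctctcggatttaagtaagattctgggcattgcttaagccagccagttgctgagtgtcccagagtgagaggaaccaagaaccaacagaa

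Zfp467, minus strand, chr6:48445041-48445340: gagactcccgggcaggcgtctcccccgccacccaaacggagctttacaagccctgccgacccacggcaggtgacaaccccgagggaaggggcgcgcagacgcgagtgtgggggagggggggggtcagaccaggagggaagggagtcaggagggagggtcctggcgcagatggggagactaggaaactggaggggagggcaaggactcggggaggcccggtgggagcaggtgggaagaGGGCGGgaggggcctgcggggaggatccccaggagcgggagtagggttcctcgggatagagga

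Motifs searched on both strands were AGATAAG, bound by GATA factors, GGTGTGA, the site of the T-box family, TGANTCA, the AP-1 site, TTCNNNGAA, the palindrome of most STAT proteins, the STAT6 form of it with a spacer of 4 bases, GGGCGG, known as the GC box, and CCGGAAG, which ETS factors bind. The outer Il4 promoter held a STAT6 match, TTCACAGGAA, which began 167 bases before the start, and 6.95% of all 32851 RefSeq promoters held one. The inner Il4 promoter held a STAT match, TTCATGGAA, which 8.30% of promoters had, and a GC box. The Tbx21 promoter held 3 overlapping GC boxes and Zfp467 held 1, against 35.7% of all promoters with at least 1, and Rdh12 held none of the motifs. Among promoters of genes with a measured start-site peak, 66.6% held a GC box, so holding one is common there. A match is a description of these letters and not a measured binding site.

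Il4, the gene of the cytokine IL-4, held more reads in Tfh214 in both genotypes. Its 2 peaks together held 2 reads (1.78 CPM) in WT Tfh21 and 12 (9.44 CPM) in WT Tfh214, and 2 (1.90 CPM) in KO Tfh21 and 7 (8.77 CPM) in KO Tfh214. Both Tfh214 libraries thus lay above both Tfh21 libraries, and the pooled ratio was 4.99 (1.66 to 20.2). The Tfh4 libraries also lay above both Tfh21 libraries, with 10 reads (7.28 CPM) in WT and 6 (4.84 CPM) in KO, so the higher level was not particular to Tfh214. With 19 reads in Tfh214 the gene fell just short of the minimum for a measured gene, so it counts in none of the totals below. At mm9 coordinates, the peak at the inner start (chromosome 11, 53430745 to 53430999) held 1 and 7 reads in WT Tfh21 and Tfh214 and 2 and 6 in KO. The peak near the outer start (53431680 to 53432106) held 1 and 5 reads in WT and 0 and 1 in KO. Its nearer edge lay 62 bases past that start, so it covered neither the promoter shown nor the STAT6 match. In KO, 6 of the 7 reads of Tfh214 thus lay at the inner start, against 7 of 12 in WT. This difference rests on few reads and was not tested.

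The neighbourhood of Il4 also held more reads in Tfh214, with an interval above 1 in WT. Within 50 kb of the outer start the file lists 27 peaks, each too weak to be measured alone. Together they held 48 and 102 reads in WT Tfh21 and Tfh214 (42.8 and 80.2 CPM) and 56 and 54 in KO (53.3 and 67.6 CPM). The pooled ratio was 1.57 (1.22 to 2.04), with 1.88 (1.32 to 2.70) in WT and 1.27 (0.857 to 1.88) in KO, and the difference between genotypes was not tested. Tfh4 stood at 77.2 CPM in WT and 59.7 CPM in KO over this window, between Tfh21 and Tfh214 of each genotype. Without the peaks of Il4 itself the window stood at 1.44 (1.10 to 1.88).

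The parts of the window differed. Its 12 intergenic peaks stood at 1.65 (0.957 to 2.90) in WT and 1.87 (1.002 to 3.56) in KO. The 7 peaks of Kif3a, the neighbour that encodes a kinesin motor, stood at 2.11 (1.07 to 4.38) and 1.56 (0.643 to 3.83). The 3 peaks of Rad50, a DNA repair gene whose introns hold the known control region of the Th2 cytokine locus, went from 5 to 9 reads in WT and from 15 to 4 in KO. Il13 went from 6 to 9 reads in WT and from 9 to 3 in KO, and Il5 from 3 to 4 and from 2 to 3. Over all 21694 windows of this width around listed starts the median ratio was 0.973, and 2.24% stood at least as high as the Il4 window. By the criterion of an interval beyond 1 with the same direction in both pairs, 2.68% of windows were higher and 6.32% lower in Tfh214. Taken from the inner start, the window gave 1.37 (1.10 to 1.71).

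Tbx21, which encodes T-bet, held fewer reads in Tfh214 in both genotypes. Its 9 peaks summed to 42 and 29 reads in WT (37.4 and 22.8 CPM) and 44 and 19 in KO (41.9 and 23.8 CPM), a ratio of 0.586 (0.403 to 0.844). Both Tfh214 libraries lay below both Tfh21 libraries, and also below WT Tfh4 at 24.8 CPM and KO Tfh4 at 29.1 CPM. The limma estimate on the log2(CPM + 1) scale was -0.74 ± 0.24 (SE), which did not pass the adjustment over all genes (limma, adjusted p = 0.877).

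The lower reads of Tbx21 lay in intron 1, and its start-site peaks, with fewer reads, were not lower. Intron 1 holds 5 listed peaks, of which 3 were lower in both Tfh214 libraries. The peak at 96963602 to 96964627 on chromosome 11 held 8 and 1 reads in WT and 13 and 1 in KO, 10.0-fold higher in Tfh21 (2.44 to 88.0). Tfh4, which the comparison does not use, held 5 reads there in WT and 10 in KO. Another intron 1 peak, at 96974055 to 96974472, held 12 and 3 reads in WT and 9 and 3 in KO. Like the peak before it, this peak was measured only through Tfh21, where it was high. Folds of peaks picked in this way tend to be too large, and the place of the difference was not tested. The peak at 96966986 to 96967478 held 6 and 0 reads in WT and 3 and 0 in KO. The other 2, with 3 and 5 reads pooled over the genotypes and with 5 and 7, were not lower.

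The start-site peaks of Tbx21, over the promoter with the 3 GC boxes, went the other way. They held 8 and 11 reads in WT and 8 and 9 in KO, a ratio of 1.31 (0.646 to 2.71). Without the intron 1 peaks, left out after their values were seen, the gene stood at 1.09 (0.619 to 1.92). The window of 50 kb on either side, with 34 peaks, held 148 and 117 reads in WT and 144 and 84 in KO, a ratio of 0.723 (0.601 to 0.868), and 1.45% of windows stood as low or lower. Without the peaks of Tbx21 it stood at 0.780 (0.628 to 0.966), and the 8 peaks of Tbkbp1, a neighbour that encodes a TBK1-binding adaptor, stood at 0.504 (0.292 to 0.852) in WT and 1.06 (0.601 to 1.86) in KO.

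**Figure D1:**
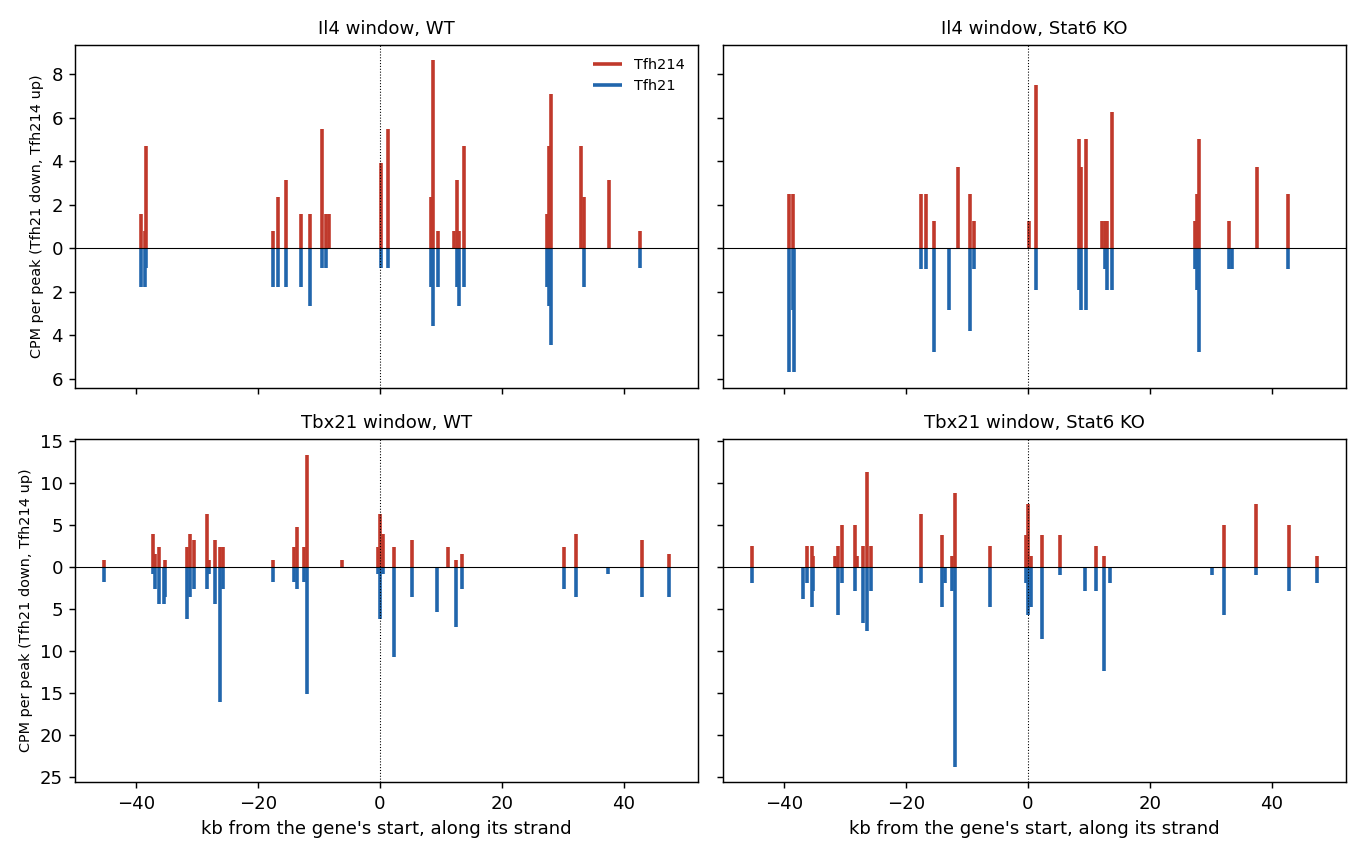
CPM of each listed peak within 50 kb of the Il4 and Tbx21 starts, against distance from the start in kb along the gene, with Tfh214 drawn upward and Tfh21 downward, WT on the left and Stat6 KO on the right, 1 library each. At Tbx21 the downward peak to the right of the start at 12.5 kb, held by 8 reads in WT Tfh21 and 13 in KO Tfh21, has 1 read in each Tfh214 library.

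Il18r1, the gene of the IL-18 receptor chain and a Th1-associated gene, pointed the same way as Tbx21. It held 45 and 28 reads in WT (40.1 and 22.02 CPM) and 46 and 18 in KO (43.8 and 22.5 CPM), a ratio of 0.531 (0.364 to 0.765). Its limma estimate was -0.88 ± 0.22 (limma, adjusted p = 0.867), the fifth smallest p among all genes tested. Its start-site peaks stood at 0.630 (0.281 to 1.35) in pooled reads, beside 0.503 (0.324 to 0.767) for the other peaks. In WT the start-site peaks went from 13 to 6 reads, a ratio of 0.407, and the others from 32 to 22. In KO the start-site peaks went from 7 to 6 reads, a ratio of 1.13 (0.313 to 3.92) in CPM, and the others from 39 to 12. The start-site peaks thus pointed in opposite directions in WT and KO. Their pooled interval includes 1, so no contrast with the start of Tbx21 is drawn. Tfh4 held 35.0 CPM in WT and 46.0 CPM in KO, above the Tfh214 library of the same genotype in both.

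Of 15 Th1 genes 9 were measured, and 2 of the 9, Tbx21 and Il18r1, passed the rule, both lower, where 1.04% of all measured genes were lower by the rule and 1.14% higher. The other 7 measured Th1 genes had intervals that included 1, and 4 of them stood below 1 in pooled reads. Il18rap, the partner chain of the IL-18 receptor beside Il18r1, held 31 and 45 reads in WT and 24 and 25 in KO, a ratio of 1.34 (0.925 to 1.94). Cxcr6, a chemokine receptor gene, held more CPM in Tfh214 in both genotypes. It held 6 and 21 reads in WT (5.34 and 16.5 CPM) and 15 and 14 in KO (14.3 and 17.5 CPM). The pooled ratio of Cxcr6 was 1.75 (0.991 to 3.16). Median-of-ratios scaling raised the lower bound of this interval to 1.03, so that it excluded 1. Ifng, which encodes interferon-gamma, held 20 and 23 reads in WT and 17 and 9 in KO, and the chemokine receptor gene Cxcr3 stood at 0.822 (0.418 to 1.59). Runx3, a regulator gene of T cell lineages, and Il12rb2, an IL-12 receptor chain gene, stood at 0.896 (0.723 to 1.11) and 0.884 (0.708 to 1.10). The median over the 9 genes was -0.16 in pooled log2 ratio, against -0.03 over all measured genes. Tbx21 and Il18r1 had been described in these data before, so their direction is no independent finding.

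Genes of naive and memory T cells were lower in Tfh214 at 4 of 9 members and higher at 1, counting pooled intervals that exclude 1. Over all measured genes that share was 3.51% for lower and 3.21% for higher, and it depends on the number of reads a gene holds. With median-of-ratios scaling, which sets the typical strong peak level between libraries, the counts were 4 and 2, while over all measured genes the same scaling moved the split from 481 lower and 439 higher to 261 lower and 686 higher. Only Il7r also passed the rule of 1.5-fold in both genotypes. It was measured only through Tfh21, with 27 reads there and 8 in Tfh214, so its call is not counted as support. Ccr7, S1pr1 and Tcf7 were named after their values were seen.

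Il7r, the gene of the IL-7 receptor chain, held 11 and 7 reads in WT (9.80 and 5.504 CPM) and 16 and 1 in KO (15.2 and 1.25 CPM), a ratio of 0.311 (0.122 to 0.704). KO Tfh214 stood apart with 1 read, and within WT alone the ratio was 0.562 (0.185 to 1.59). Tfh4 stood highest in each genotype, at 11.7 CPM in WT and 21.8 CPM in KO. Il7r held too few reads on average to enter the limma fit.

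S1pr1, the receptor gene for exit from lymphoid organs, held 47 and 46 reads in WT and 58 and 21 in KO, a ratio of 0.670 (0.486 to 0.919). The larger difference lay in the KO pair, at 0.477 (0.275 to 0.797), against 0.864 (0.563 to 1.33) in WT.

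Ccr7, the chemokine receptor gene of the T cell zone, and Tcf7, which encodes TCF-1, showed the larger difference in WT. Ccr7 held 46 and 26 reads in WT (41.0 and 20.4 CPM) and 49 and 30 in KO (46.6 and 37.6 CPM), a ratio of 0.619 (0.437 to 0.870). Its start-site peaks stood at 0.712 (0.376 to 1.32) and its other peaks at 0.580 (0.377 to 0.879). Tcf7 held 156 and 121 reads in WT and 141 and 96 in KO, a ratio of 0.767 (0.641 to 0.917). A single intron 2 peak of Tcf7, 6734 bases from the start (chromosome 11, 52088937 to 52089364), passed the rule, with 27 and 13 reads in WT and 23 and 11 in KO.

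Cd44, the gene of the activation marker CD44, was the member that was higher. Its peaks summed to 146 and 210 CPM in WT and 167 and 205 CPM in KO, on 164, 267, 176 and 164 reads, a ratio of 1.33 (1.152 to 1.54). Both Tfh214 libraries lay above the other 4 libraries of the study, Tfh4 being at 126 CPM in WT and 167 CPM in KO. The start-site peaks of Cd44 stood at 1.05 (0.628 to 1.76) and the other peaks at 1.36 (1.17 to 1.58). The first interval includes 1.36, so these reads cannot tell whether the start differed from the rest. The limma estimate was 0.41 ± 0.13 (limma, adjusted p = 0.877).

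Of the remaining naive and memory genes, Lef1 stood at 0.963 (0.851 to 1.09), Klf2 at 0.938 (0.744 to 1.18) and Satb1 at 0.975 (0.808 to 1.18). Bach2, a repressor gene of effector programs, stood at 1.25 (0.990 to 1.59), with 1.41 (1.03 to 1.94) in WT, and is the other higher member under median-of-ratios scaling, at 1.31 (1.03 to 1.66). Direction was the same in the WT pair and the KO pair for 8 of the 9 members, Lef1 being the exception, against 7118 of all 13697 measured genes. Satb1 was near even, with log2 ratios of -0.011 in WT and -0.018 in KO. With median-of-ratios scaling the pooled ratios of Satb1 and Lef1 crossed to just above 1, at 1.02 and 1.004. Of the 4 lower genes, Ccr7, S1pr1 and Tcf7 entered the limma fit and did not pass its adjustment, and the share of reads at start sites was also lower in Tfh214, as given above. Its part in these ratios was not tested.

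**Figure D2:**
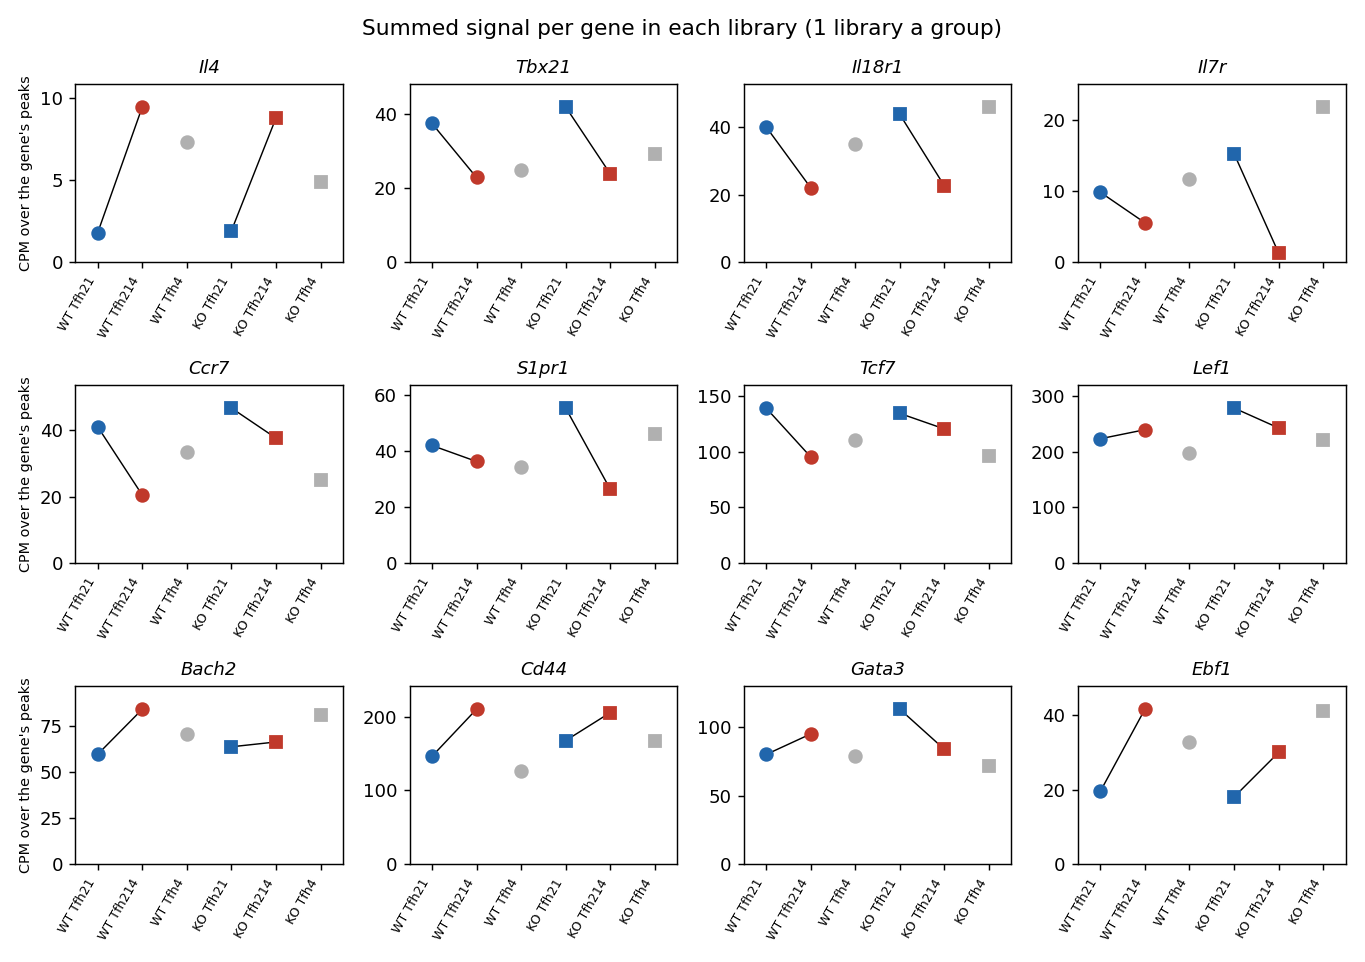
CPM summed over the peaks of each of 12 genes in all 6 libraries, 1 library a group, circles for WT and squares for Stat6 KO, with a line joining Tfh21 to Tfh214 of a genotype. Il4, Cd44, Ebf1 and Bach2 are higher at the Tfh214 end of both lines, Tbx21, Il18r1, Il7r, Ccr7, S1pr1 and Tcf7 are lower at that end of both, and Gata3 and Lef1 run in opposite directions.

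**Figure D3:**
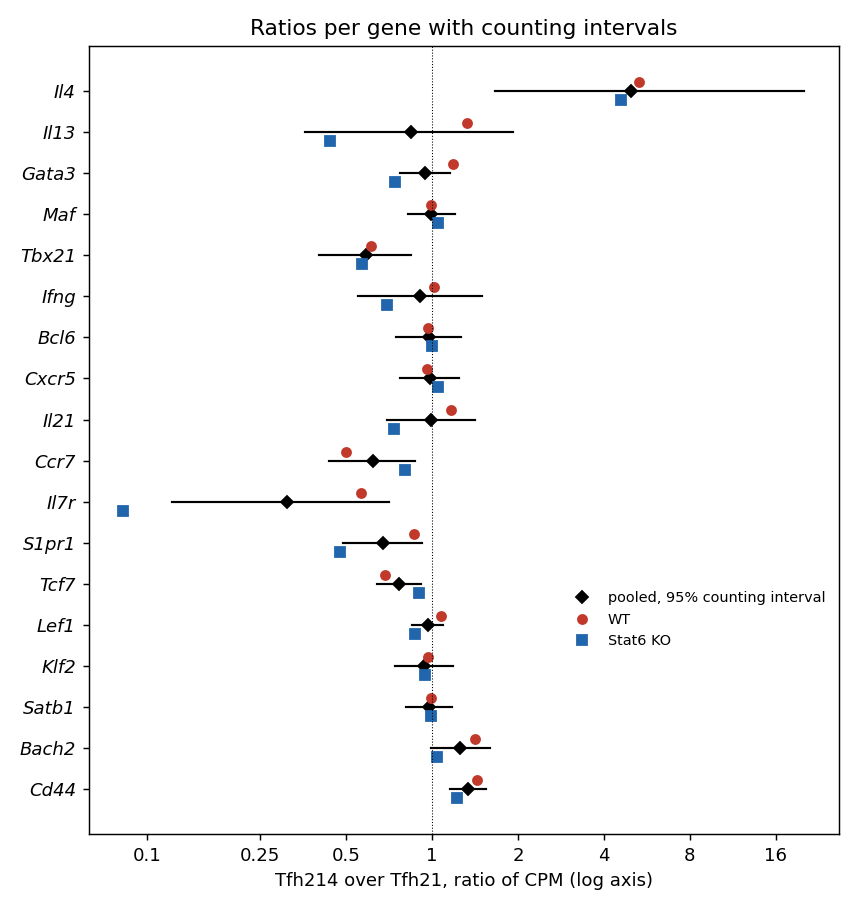
Ratio of CPM in Tfh214 over Tfh21 per gene on a log axis, with diamonds for pooled reads, lines for the 95% counting interval, circles for WT and squares for Stat6 KO. Of the naive and memory genes from Ccr7 down to Cd44, 4 intervals lie below 1 and that of Cd44 lies above it.

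The Th2 program did not share one direction with Il4. Of its 14 genes 11 were measured and 0 passed the rule. The median log2 ratio was 0.24 in the WT pair and -0.28 in the KO pair, against -0.02 and -0.03 over all measured genes, and 5 of the 11 had the same direction in both, near the share over all measured genes (52.0%). Gata3, the main Th2 regulator, held 90 and 121 reads in WT and 119 and 67 in KO, a ratio of 0.944 (0.771 to 1.16). Pparg, a nuclear receptor gene used by Th2 cells, was higher in both, with 25 and 38 reads in WT and 22 and 28 in KO (1.47, 0.9991 to 2.19). Of the others, Areg, which encodes amphiregulin, held 23 and 39 reads in WT and 28 and 18 in KO. Whether the genotypes differ was not tested, and the depth of KO Tfh214 was the lowest.

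Most genes of the Tfh program had intervals that included 1. All 14 Tfh regulators were measured, 0 passed the rule and the median pooled log2 ratio was -0.06. The intervals of Tcf7, given above, and Foxp1, a forkhead factor gene, at 0.898 (0.822 to 0.982), lay below 1, and that of Foxp1 became 0.937 (0.857 to 1.02) with median-of-ratios scaling. Bcl6 stood at 0.974 (0.749 to 1.27), Maf at 0.994 (0.821 to 1.204), Tox2 at 0.988 (0.837 to 1.16) and Batf at 0.936 (0.765 to 1.14). Cxcr5, the follicle homing receptor gene, stood at 0.980 (0.774 to 1.24), Pdcd1, the gene of the inhibitory receptor PD-1, at 1.03 (0.820 to 1.29) and Il21, the gene of the cytokine IL-21, at 0.989 (0.694 to 1.41). With median-of-ratios scaling Bcl6, Maf, Tox2, Cxcr5 and Il21 crossed to just above 1, so no direction is given for them. Of 15 measured Tfh surface and signalling genes 0 passed the rule and 0 had an interval that excluded 1.

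Treg genes gave 3 lower intervals of 6 measured, namely Ikzf2 at 0.862 (0.749 to 0.992), Ikzf4 at 0.637 (0.412 to 0.974) and Ctla4 at 0.711 (0.511 to 0.984), and with median-of-ratios scaling all 3 included 1. Tyk2, a kinase of cytokine receptors, and Stat4, the transducer of IL-12 signals, stood at 0.693 (0.494 to 0.965) and 0.813 (0.691 to 0.957), and with median-of-ratios scaling the interval of Tyk2 included 1, at 0.722 (0.515 to 1.01). Stat6 itself, the targeted gene, held 51 and 69 reads in WT and 57 and 51 in KO over 6 peaks, a ratio of 1.17 (0.892 to 1.53), which checks no genotype label, since the deleted part is not known here. Tyk2 and Stat4 were the members with a lower interval among 20 measured genes of the IL-4 receptor, JAK, STAT and SOCS group, of which 0 passed the rule. Bhlhe40, a regulator of cytokine production, stood at 0.697 (0.518 to 0.934).

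Ebf1, a transcription factor gene of the B lineage, was the 1 member of 6 measured B cell genes past the rule. Its 18 peaks, all away from a start, held 22 and 53 reads in WT (19.6 and 41.7 CPM) and 19 and 24 in KO (18.1 and 30.1 CPM), a ratio of 1.97 (1.33 to 2.96). Tfh4 held 32.8 CPM at Ebf1 in WT and 41.2 CPM in KO, above Tfh21 in both genotypes and above Tfh214 in KO. Pax5, the partner of Ebf1 in B cell identity, held 86 and 128 reads in WT and 74 and 59 in KO (1.23, 0.988 to 1.53). Median-of-ratios scaling put Pax5 at 1.28 (1.03 to 1.59). Blnk, a B cell adaptor gene, held 11 and 25 reads in WT and 15 and 10 in KO (1.41, 0.827 to 2.45). Cr2, Fcer2a and Blk stood between 0.834 and 0.913. Ms4a1 and Cd79a, without a listed peak, and Cd79b, with few reads, were not measured. Among myeloid genes Adgre1 was lower, with 18 and 11 reads in WT and 16 and 2 in KO (0.401, 0.194 to 0.780), and Csf1r was at 1.60 (0.918 to 2.83).

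**Figure D4:**
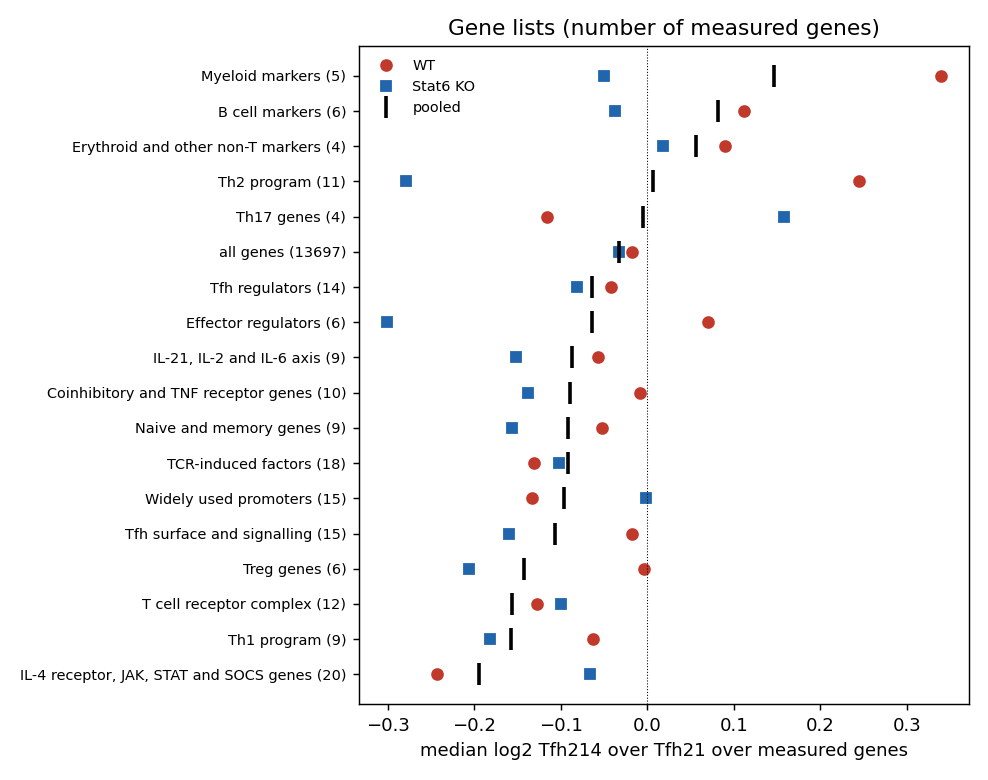
Median log2 ratio of Tfh214 over Tfh21 over the measured genes of each list (number in brackets), with circles for the WT pair, squares for the Stat6 KO pair and bars for pooled reads. The naive and memory list has a pooled median of -0.09, and the Th2 list lies at 0.24 in WT and -0.28 in KO.

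Over single peaks, 116 of 15431 measured peaks were past the rule as higher in Tfh214 (0.752%) and 255 as lower (1.65%), while 170 stood 1.5-fold higher in WT but 1.5-fold lower in KO and 44 the reverse. With median-of-ratios scaling the split was 147 higher and 221 lower. Folds of peaks picked by the size of their difference tend to be too large, which the intervals do not reflect. Asking instead for at least 40 reads over the 4 libraries, a filter that favours neither direction, left 42 higher, 92 lower and 169 opposite among 13914 peaks. As a description across features that share their libraries, the log2 ratios of the WT pair and the KO pair had a Pearson correlation of -0.0070 over these peaks and 0.04 over genes filtered alike, against 0.12 and 0.10 over all measured peaks and genes.

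Peaks named as higher in Tfh214 are given here with the gene they lie in or nearest to. The first named was intergenic, 70.3 kb from the start of Mir137 (chromosome 3, 118065898 to 118067104), with 2 and 13 reads in WT and 1 and 7 in KO, a ratio of 7.0 (2.08 to 36.8). A peak in intron 7 of Arsb, a lysosomal sulfatase gene (chromosome 13, 94709361 to 94709813), held 3 and 15 reads in WT and 1 and 6 in KO. Further intergenic peaks, at ratios from 3.15 to 5.25, lay nearest to Gramd3, Tspan11, Robo1, Pcdh9, Spred1, Kctd1 and Nbeal1, and 1 lay in intron 12 of Nsd1, a histone methyltransferase gene.

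The promoters of Rdh12 and Zfp467 shown above held the start-site peaks among the 12. Rdh12, a retinol dehydrogenase gene, held 1 and 11 reads in WT and 4 and 10 in KO (chromosome 12, 80309847 to 80310191; 4.41, 1.62 to 14.97). Zfp467, a zinc finger gene, held 6 and 16 reads in WT and 1 and 7 in KO (chromosome 6, 48394901 to 48395395; 3.45, 1.43 to 9.52). In both promoters each Tfh214 library held more CPM than either Tfh21 library.

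Peaks lower in Tfh214 were led by intron 4 of Pip4k2a, a phosphoinositide kinase gene (chromosome 2, 18805738 to 18806379), with 10 and 2 reads in WT and 12 and 0 in KO, a ratio of 0.0955 (0.0109 to 0.388). The intron 1 peak of Tbx21 came next. Inpp4b, a phosphoinositide phosphatase gene, held 12 and 3 reads in WT and 9 and 1 in KO in its intron 7 (chromosome 8, 84303870 to 84304372). Msl1, a subunit gene of a histone acetyltransferase complex, held 12 and 2 reads in WT and 8 and 2 in KO at a peak 407 bases before its start (chromosome 11, 98656458 to 98656676). The other 8, at ratios from 0.158 to 0.252, lay in Rap1gap, Fbxo2, E230029C05Rik, Osbpl8 and Tmem44 and nearest to Grb7, Apc and Vwde.

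As a class, 41.4% of the higher and 32.9% of the lower peaks were intergenic, against 19.9% of all measured peaks, and 24.1% and 23.1% lay at a start site, against 57.5%. Weak peaks were frequent in both sets: 63.8% of the higher and 63.9% of the lower peaks held under 40 reads over the 4 libraries, against 9.83% of all. Such peaks were measured only through the population where they were high, so no feature of these sets is read from them.

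Summed per gene, 156 of 13697 measured genes were past the rule as higher and 142 as lower, with 185 and 119 by median-of-ratios scaling. Named as higher were Tmprss12, a membrane protease gene, with 1 and 18 reads in WT and 2 and 5 in KO (8.05, 2.43 to 41.9), and Fjx1, a gene of the four-jointed family, with 3 and 16 reads in WT and 2 and 9 in KO (5.25, 1.97 to 17.6). Cap2, which encodes an actin regulator, had the most reads of the 10, 11 and 38 in WT and 11 and 17 in KO (2.62, 1.57 to 4.52), with a limma estimate of 1.24 ± 0.32 (limma, adjusted p = 0.867). Muc15, Epyc, Psd3, Zkscan2, Hk1os, AA536875 and Comp stood between 3.06 and 5.25. Except for Cap2, these genes were measured only through Tfh214, where they were high. Tfh4 also stood above Tfh21 over the 156 higher genes, so the higher level was not particular to Tfh214. The sums in Tfh21, Tfh214 and Tfh4 were 1491, 2868 and 2368 CPM in WT and 1182, 2478 and 2053 CPM in KO.

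Named as lower beside Il7r was Lin28a, which encodes a regulator of let-7 microRNAs, with 14 and 1 reads in WT and 11 and 3 in KO (0.168, 0.0425 to 0.487). Cfd, the complement factor D gene, held 11 and 4 reads in WT and 14 and 2 in KO (0.252, 0.0845 to 0.629). Zmat5, a gene of the minor spliceosome, held 18 and 2 reads in WT and 10 and 4 in KO (0.225, 0.0762 to 0.554). Gm2011, D630010B17Rik, Ccdc187, Abhd11os, Gm20605 and Lrrc66 stood between 0.210 and 0.387. All genes named as lower were measured only through Tfh21, where they were high. Over the 142 lower genes Tfh4 summed to 2169 CPM in WT and 1909 CPM in KO, between Tfh21 (2558 and 2473) and Tfh214 (1365 and 1299). Just inside the rule stood Atl1 (log2 0.78 in WT and 0.59 in KO) and Adcy1 (-0.59 and -0.65), and just outside it Catsperb (0.58 and 0.63) and Psmb6 (-0.58 and -0.58).

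**Figure D5:**
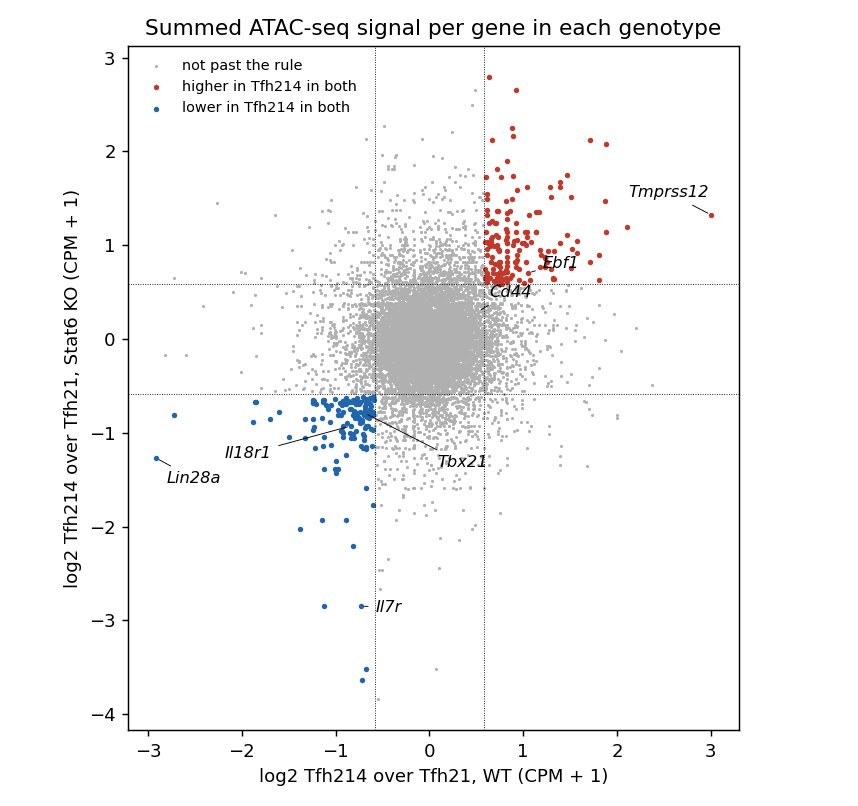
Log2 ratio of Tfh214 over Tfh21 on the CPM + 1 scale in Stat6 KO against WT for 13697 measured genes, with dotted lines at 1.5-fold and the 156 genes higher and 142 lower in both genotypes in colour. The cloud has little slope, and Tbx21, Il18r1 and Il7r lie in the lower left corner while Cd44 lies short of the 1.5-fold line in both genotypes.

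An additive limma model of genotype and population over all 6 libraries called 0 of 8986 peaks (0%) and 0 of 10825 genes (0%) between Tfh214 and Tfh21 at an adjusted p of 0.05. At an unadjusted p under 0.05 it gave 345 peaks, 83 of them higher, and 552 genes, 247 of them higher. With median-of-ratios scaling these splits were 179 higher and 163 lower peaks and 380 higher and 195 lower genes. edgeR called 0 of each, with 177 peaks and 487 genes at an unadjusted p under 0.05, and DESeq2 called 0 of each, with 0 peaks and 9 genes. The smallest adjusted p for a gene was 0.867 in limma and 0.0650 without the Tfh4 libraries. These p-values measure the spread over these libraries only.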

How the data were processed

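ATAC-seq was measured in 6 libraries, and the 4 of Tfh21 and Tfh214 were compared, grouped by their labels. The authors deposited CPM values for 1 common list of 282898 peaks, with each library scaled to its reads in those peaks. The submitters' processing notes name Bowtie 1.3.0, MACS2 2.0, HOMER and mm9 but no roles. Pooling for peak calls, the handling of duplicates and any shift of cut positions are not given in the sources used here. Gene symbol, section and distance are as in the file, and 148063 peaks had a gene, for 19109 genes.

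Whole reads were recovered from the steps of the CPM values. Each library had at most 3 values that missed a whole number by over 0.02 reads, and its total was 798555 to 1373218 reads. Precision was thus set by counting.

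Gene values are sums over peaks with that symbol. With 1 library per group, pairs carry no p-value. limma 3.58.1 with a variance trend was fitted to log2(CPM + 1) over peaks or genes with a mean of at least 20 reads, and edgeR 4.0.16 and DESeq2 1.42.0 to the recovered reads, in R 4.3.3, with Benjamini-Hochberg adjustment. The limma step was tested on simulated data. Other steps used Python 3.11.15, numpy 2.4.6, pandas 2.3.3 and scipy 1.17.1.

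Named were the 12 peaks and 10 genes a direction past the rule whose interval bound nearest 1 lay farthest from it, 20 fixed genes, and from each of 19 lists the members past the rule with up to 2 more that held the most reads. Genes outside this rule are given for their interval and were named after their values were seen. A few genes are not reported here and were taken out of their lists, counts and medians included. The members and lists were chosen with earlier results of these data known. Alternatives were other minimum reads, folds, pseudocounts, scalings and tools, and leaving out the Tfh4 libraries. No mm9 genome was used here, so no peak sequence is printed.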

Additional observations from a re-analysis of the deposited data

Results flagged for a closer look

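Of the 20 fixed genes, 10 had opposite signs in the WT pair and the KO pair, with 1 library on each side, and the difference between the genotypes was not tested. Opposite signs were common: over all 13697 measured genes 52.0% had the same direction in both pairs. As log2 ratios of Tfh214 over Tfh21 in WT and then KO, 7 were higher in WT and lower in KO. Il13 stood at 0.35 and -1.01, and Il21 at 0.21 and -0.43. Gata3 stood at 0.24 and -0.43, and Il1rl1, the IL-33 receptor gene, at 0.67 and -0.28. Ccr8 stood at 0.61 and -0.52, Ifng at 0.021 and -0.48, and Prdm1, which encodes Blimp-1, at 0.14 and -0.26. The other 3 were lower in WT and higher in KO, with Maf at -0.011 and 0.07, Cxcr5 at -0.063 and 0.07 and Il4ra at -0.20 and 0.14. Maf and Cxcr5 thus differed from 0 by less than 0.1 in both.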

How the results depend on the processing

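Of 64 alternatives for the comparisons, 40 kept direction and size, and with median-of-ratios scaling 5 of the 38 named gene ratios crossed 1 (Bcl6, Cxcr5, Il21, Maf and Prdm1, between 1.02 and 1.04), none of which had an interval that excluded 1. Peaks higher and lower in Tfh214 numbered 3649 and 3639 with a minimum of 10 reads, 10 and 28 with 40 reads, 25 and 37 at 2-fold, 308 and 769 at 1.5-fold over pooled reads, and 42 and 92 with at least 40 reads over the 4 libraries, a filter chosen after seeing the data. Genes numbered 373 and 272, 45 and 50, 27 and 12, 403 and 371, and 92 and 88 in the same order. With at least 40 reads over the 4 libraries 0 of the 24 named peaks kept the call, by construction, since they hold fewer, and of the 10 named genes a direction 4 higher and 2 lower ones kept it. At 2-fold 9 higher and 5 lower named genes kept it. Tbx21 reversed to 1.31 on start-site peaks and to 1.09 without intron 1, the latter chosen after seeing the data. The share of reads at start sites differed by -0.519 points in the WT pair and -1.49 in the KO pair. Over pooled libraries, whose genotype mix differs between the populations, it was -1.37 points. It was -0.0688 points within the peaks that limma tested and -0.646 within the weaker ones. All 18 alternatives of the limma fits called 0. These fits have genotype as a term, so they pair the populations by genotype, and there is no other pairing. The median peak held 14 reads over 6 libraries, which limits single peaks.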

Other observations

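The genes with the smallest limma p-values for Tfh214 against Tfh21, named after their values were seen and all at an adjusted p of 0.867, include genes of T cell surface proteins. Entpd1, which encodes the ectoenzyme CD39, had a limma log2 difference of -0.65 ± 0.16 (SE), and Cd6, the gene of a T cell costimulatory receptor, one of -0.63 ± 0.16. On the higher side stood Ano4 at 0.97 ± 0.23, Lnx1 at 1.16 ± 0.29, Stab2, the gene of a scavenger receptor of sinusoidal endothelium, at 0.75 ± 0.19, and the endothelial and haematopoietic transcription factor gene Erg at 0.65 ± 0.17. Pecam1, which encodes the adhesion molecule CD31, held 54 and 72 reads in WT Tfh21 and Tfh214 and 41 and 57 in KO, a ratio of 1.43 (1.09 to 1.88).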
